A study of Mus musculus with 2 samples.

Results

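Retinoic acid synthesis and receptor genes were compared between kidneys of a cystic mouse mutant and wild type at postnatal day 3. The set held 9 genes. Aldh1a1, Aldh1a2 and Aldh1a3 stand for synthesis, and Aldh1a7 was included as a paralogue of Aldh1a1. Rbp4, Stra6 and Crabp2 stand for carriage and uptake, and Rara and Rarb are receptors. Every probe set whose deposited annotation named 1 of the 9 genes alone was taken. This gave 11 of the 45037 probe sets and 9 of 20667 annotated genes. Aldh1a3 had 3 probe sets and each of the other 8 genes had 1. The set was proposed with the values of these same arrays in view, and its members were chosen by symbol with the intensities of both arrays known, so the differences are a description and support no claim about the pathway.

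The mutant sample came from the B6C3Fe a/a-bpck mouse, a model of polycystic kidney disease, in which tubules widen into fluid-filled cysts. The wild-type sample came from a mouse whose label names no strain. Both were total RNA of whole kidney taken on day 3 after birth, in a phase that the labels describe as one of rapid growth of renal corpuscles, and 100 ng of each was labelled with biotin. There was 1 Affymetrix Mouse 430 2.0 array per group, and the labels give neither the number of animals behind an RNA nor the mutated gene. With 1 array on each side, variation between animals is unknown and nothing could be tested. In whole tissue, fewer cells of a type and less RNA per cell cannot be told apart.

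Vitamin A circulates as retinol bound to retinol-binding protein, which Rbp4 encodes, and Stra6 is a membrane receptor that takes the retinol up. Retinol dehydrogenases turn retinol into retinal, which the enzymes of Aldh1a1, Aldh1a2 and Aldh1a3 oxidise to retinoic acid. Crabp2 carries retinoic acid to nuclear receptors of the RAR family, which act on DNA as partners of RXR. In the embryonic mouse kidney, stromal cells that express Aldh1a2 make retinoic acid, and signalling through Rara and Rarb maintains Ret, the receptor tyrosine kinase of the branching ureteric bud.

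Aldh1a1 and its paralogue Aldh1a7 read higher in the mutant, and Aldh1a3 read lower on its brighter probe sets. Aldh1a2, the stromal enzyme, was nearly equal, and the carriers and receptors were all within 1.24-fold. The deposited intensity, an expression index on a linear scale, was compared after values below 4.2, the 20th percentile over the arrays, had been raised to it. A probe set counted as above the filter when it read 16.53 or more, the overall median, on at least 1 array, and 8 of the 11 did so. Of these 8, 1 was at least 2-fold higher in the mutant and 0 were at least 2-fold lower, where 0.528% and 0.741% of the 23491 probe sets above the filter were. At 1.5-fold the counts were again 1 and 0, against 2.25% and 3.85% of all, but 2 and 0 both with array medians set equal and after quantile normalization, when Aldh1a7 passed the line. By any amount 2 were higher and 6 lower (45.9% and 54.0% of all), and quantile normalization left 2 higher and 6 lower. Once array medians were set equal, 4 were higher and 4 lower. Under that scaling, 8526 of the 13154 genes above the filter, with 1 probe set per gene, were higher. The median log2 difference, mutant minus wild type, was -0.11 over the 8 and -0.07 over all 11, and -0.02 over all probe sets above the filter.

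**Figure D1:**
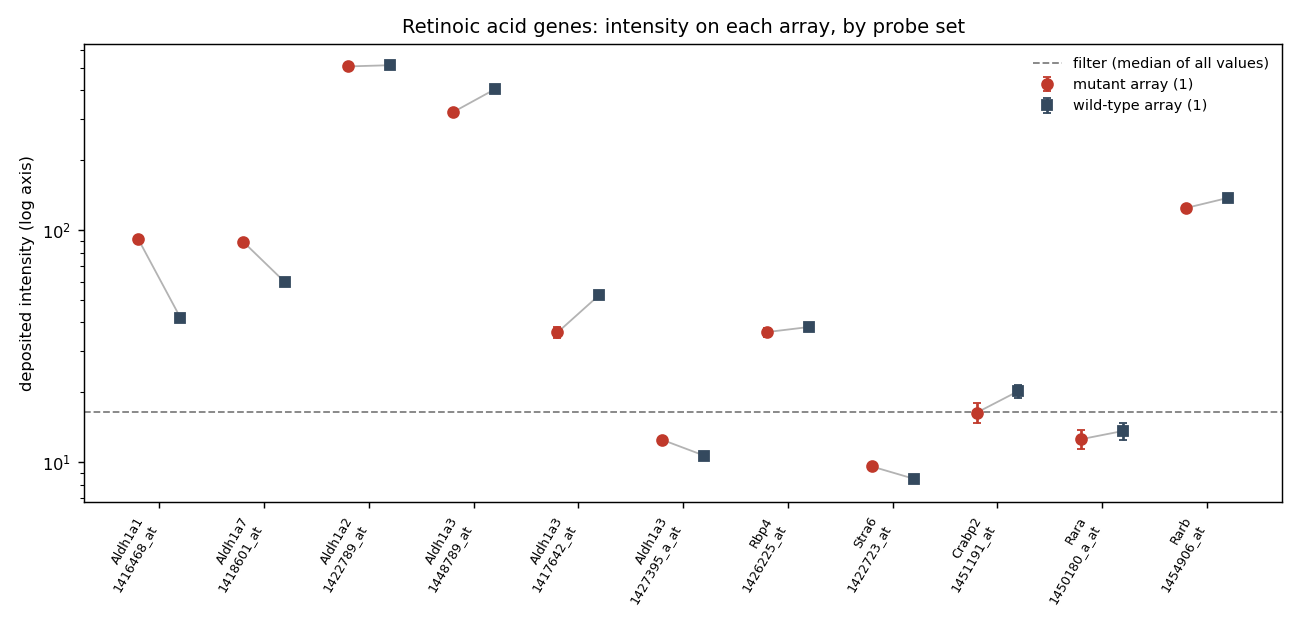
Deposited intensity (log axis) of each of the 11 probe sets in the mutant array (circles) and in the wild-type array (squares); error bars are the authors' standard errors over the probes of 1 array, and the dashed line is the filter at 16.53. Only for Aldh1a1 are the arrays more than 2-fold apart, at 91.3 in the mutant and 42.0 in wild type.

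The Aldh1a genes went in different directions. Aldh1a1, which encodes a cytosolic retinaldehyde dehydrogenase, had an intensity of 91.3 in the mutant array, against 42.0 in the wild-type array. This 2.17-fold difference (log2 1.12) ranked 214 by size among the 23491 probe sets above the filter, so 0.911% of them lay at least as far apart. Among the 8738 of those with a geometric mean intensity of 50 to 200, as Aldh1a1 has, 0.343% were at least 2-fold apart.

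In the authors' deposited table the fold of Aldh1a1 had bounds of 2.05 and 2.31. These bounds come from the spread between probes of each array and hold no variation between animals. The header of that table gives a lower bound past 1.5 and a difference past 20 as its criteria. By the rounded columns of that table, Aldh1a1 was the only probe set of the 11 to meet both, as did 256 of all probe sets (0.568%). The last line of the authors' deposited table states 354, and the cause of the mismatch was not found, so the share is that of the columns.

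Aldh1a7, a rodent paralogue of Aldh1a1, read 89.1 in the mutant array, against 59.6 in the wild-type array. The difference was 1.495-fold (log2 0.58), just short of the 1.5-fold line, and it was 1.57-fold with array medians set equal. The authors' deposited table bounds this fold at 1.42 and 1.58, so its lower bound missed the criterion of 1.5. Both genes thus read higher in the mutant, Aldh1a1 by more than Aldh1a7.

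Aldh1a1 and Aldh1a7 are neighbours on chromosome 19, and RefSeq (GRCm38.p6) has no other protein-coding gene between them. Their sequences before the start of transcription are shown because they are the pair that read higher, and because the sequences are nearly the same close to the start. Each line gives the 250 bases before the start, 5′ to 3′ on the gene's own strand, with the longest run shared by both, of 65 bases, in capitals. The window of Aldh1a1 is chr19:20601718-20601967 on the plus strand, the more downstream of its 2 windows, and that of Aldh1a7 is chr19:20727557-20727806 on the minus strand.
Aldh1a1: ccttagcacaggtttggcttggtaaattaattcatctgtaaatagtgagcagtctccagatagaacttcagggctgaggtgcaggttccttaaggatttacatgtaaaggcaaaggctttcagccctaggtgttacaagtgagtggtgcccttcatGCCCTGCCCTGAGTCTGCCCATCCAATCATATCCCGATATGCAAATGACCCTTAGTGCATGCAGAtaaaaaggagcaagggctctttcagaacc
Aldh1a7: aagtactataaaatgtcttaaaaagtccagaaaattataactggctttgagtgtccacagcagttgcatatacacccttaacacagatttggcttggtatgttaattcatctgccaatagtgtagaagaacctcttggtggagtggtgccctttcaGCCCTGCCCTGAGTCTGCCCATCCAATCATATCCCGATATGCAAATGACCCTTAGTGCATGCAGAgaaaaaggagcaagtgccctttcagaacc
The shared run lies at -94 to -30 from the start of both genes. Over the last 100 bases before the start, 94 were identical without a gap. The run holds CCAAT at -72 to -68, a word found on either strand in 37.4% of all 32851 promoter windows of 300 bases. The run also holds TATGCAAATG at -57 to -48. This is the longest word that the windows of Aldh1a1, Aldh1a7 and Aldh1a2 share on the same strand, and 0.170% of all windows hold it on either strand. In Aldh1a2 it lies at -85 to -76, although the Aldh1a2 window aligned with that of Aldh1a1 over only 16 bases. The window of Aldh8a1, an aldehyde dehydrogenase gene outside the set, also holds the word, at -59 to -50. Aldh8a1 read 1.59-fold lower in the mutant, the opposite direction from Aldh1a1 and Aldh1a7. The word was picked for being shared, and a match is a description of letters, not of binding. Whether probes of Aldh1a1 also take up RNA of Aldh1a7 was not tested.

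The other protein-coding genes next to the pair gave no common direction. Anxa1, the gene before Aldh1a1, encodes the phospholipid-binding annexin A1 and read 473 in the mutant array, against 379 in the wild-type array (1.25-fold higher). Trpm6, which lies beyond Anxa1 and Rorb, was lower in the mutant on both its probe sets (log2 -0.18 and -0.10). Zfand5, a zinc finger gene that lies beyond Tmc1, read 744 in the mutant array, against 821 in the wild-type array on its brightest probe set (1.10-fold lower). Tmc1, the gene right after Aldh1a7, and Gda stayed under the filter on all their probe sets.

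Aldh1a2 encodes the main retinoic acid synthesising enzyme of the early embryo and of kidney stroma. It read 508 in the mutant array, against 514 in the wild-type array, a 1.01-fold difference whose sign turned (log2 -0.02 as deposited, 0.06 with array medians set equal). Both values lay above 95% of probe sets on their own array, at percentile 95.1 in the mutant array and 95.2 in the wild-type array. The authors' deposited table gives standard errors of 2.13 in the mutant array and 2.11 in the wild-type array. Aldh1a2 was thus read brightly on both arrays and hardly differed between them.

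Stromal markers were mixed in direction, and podocyte markers were all lower in the mutant. The 10 stromal markers, all above the filter, summed to 4678 in the mutant array and 4801 in the wild-type array, with 3 higher and 7 lower. Of all genes above the filter, 48.0% were higher and 51.9% lower. Tcf21, which was higher, gave the largest part of both sums, 1724 in the mutant array and 1555 in the wild-type array. Dpt, at 23.7 in the mutant array and 49.5 in the wild-type array, was the only stromal marker at least 2-fold apart. Foxd1, the transcription factor of cortical stromal progenitors, read 114 in the mutant array and 135 in the wild-type array. All 7 podocyte markers were lower, with a sum of 1329 in the mutant array and 1834 in the wild-type array. Wt1, a transcription factor gene of podocytes and nephron progenitors, read 230 in the mutant array and 297 in the wild-type array. The part of these cell types in the Aldh1a2 values was not tested.

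Aldh1a3, another retinaldehyde dehydrogenase, was read by 3 probe sets that did not agree on a direction. The brightest, 1448789_at, read 322 in the mutant array, against 404 in the wild-type array (1.26-fold lower, log2 -0.33). The next, 1417642_at, read 36.2 in the mutant array, against 52.6 in the wild-type array (1.45-fold lower, log2 -0.54), and is annotated with the same sequence record as the first. The dimmest, 1427395_a_at, read 12.5 in the mutant array, against 10.7 in the wild-type array, and stayed under the filter on both. The authors' deposited table bounds the fold of the brightest probe set at -1.22 and -1.29, where a minus sign means lower in the mutant. Markers of ureteric epithelium and collecting duct differed the other way from the brighter Aldh1a3 probe sets. Of the 10 above the filter, 8 were higher in the mutant and 2 lower, where 48.0% of all genes above the filter were higher. The markers that were lower were Aqp2, a water channel, and Upk1b, a uroplakin gene of urothelium. Their part in the Aldh1a3 difference was not tested.

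**Figure D2:**
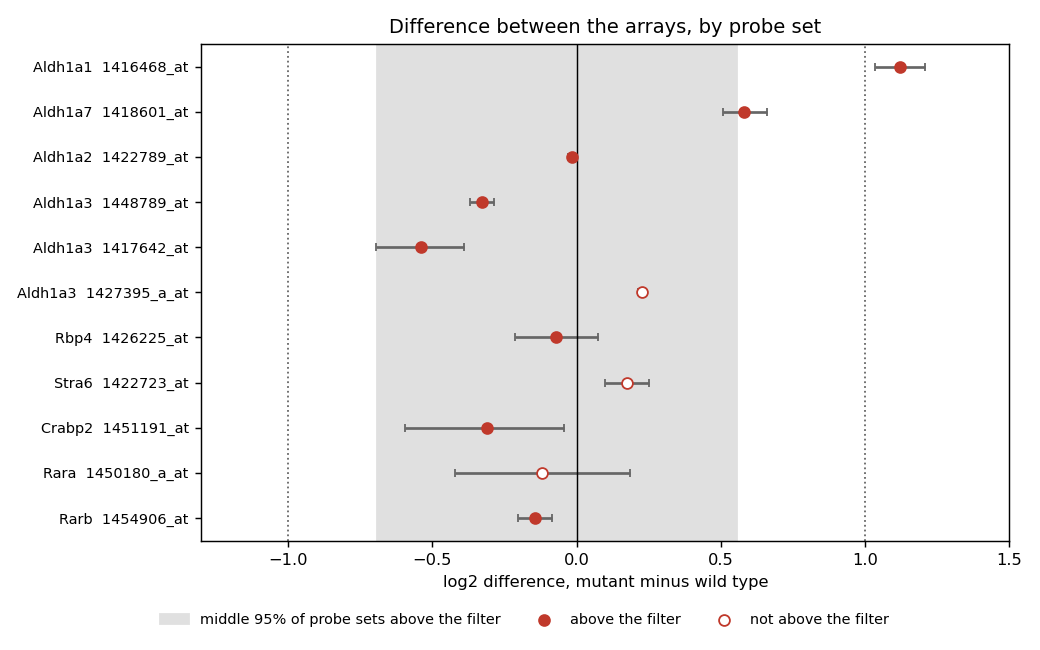
Log2 difference, mutant minus wild type, of each probe set (filled circles above the filter, open circles under it), with the authors' bounds of the fold as bars and the middle 95% of all probe sets above the filter, -0.69 to 0.56, in grey. Aldh1a1 at 1.12 lies past the dotted 2-fold line, Aldh1a7 at 0.58 lies just outside the grey range, and the remaining probe sets lie inside it.

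Dim probe sets scatter more than bright ones, so each member was also set against probe sets of similar intensity, in bins of 0.5 on the mean log2 scale. The middle 95% of the 2318 probe sets in the bin of Aldh1a1 ran from -0.53 to 0.48, and Aldh1a1 at 1.12 lay above it. In the bin of Aldh1a7 that range was -0.46 to 0.46, and Aldh1a7 lay above it as well. The brightest Aldh1a3 probe set, at -0.33, lay just below its range of -0.30 to 0.33. The other 5 probe sets above the filter, which include 1417642_at of Aldh1a3, lay inside the range of their bins.

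**Figure D3:**
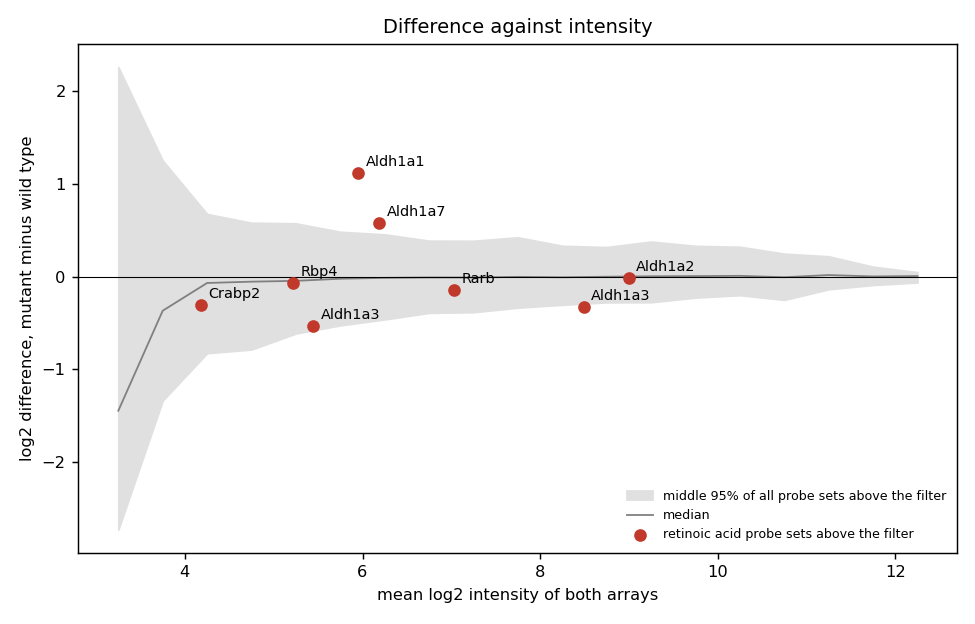
Log2 difference, mutant minus wild type, against mean log2 intensity; the grey band spans the middle 95% of all probe sets above the filter in bins of 0.5, the line is their median, and points are the 8 retinoic acid probe sets above the filter. Aldh1a1 and Aldh1a7 stand above the band and the brightest Aldh1a3 probe set, at mean log2 8.49, stands at its lower edge.

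The carriage and uptake genes were dim. Rbp4, whose main source in the body is the liver, read 36.4 in the mutant array, against 38.3 in the wild-type array, a 1.05-fold difference (log2 -0.07) that became 0.00 with array medians set equal. The authors' bounds for it, -0.95 and -1.16 in the deposited table, include equality. Stra6 read 9.59 in the mutant array, against 8.49 in the wild-type array, both under the filter. Its 1.13-fold difference lies where intensities give little hold, since a floor at the 40th percentile set both arrays equal. Crabp2 read 16.3 in the mutant array, against 20.3 in the wild-type array (1.24-fold lower, log2 -0.31). It passed the filter only through the wild-type array, and 19.8% of probe sets above the filter lay at least as far apart.

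Liver markers were read beside Rbp4, since the liver makes its protein for the blood. Of 8 liver markers, all above the filter, 7 were higher in the mutant and 1 lower, where 48.0% of all genes above the filter were higher. Alb, the serum albumin gene, read 155 in the mutant array, against 60.7 in the wild-type array, and Afp, the fetal albumin relative, read 552 in the mutant array, against 796 in the wild-type array. All 8 liver markers summed to 918 in the mutant array and 1004 in the wild-type array, and the lower sum in the mutant comes from Afp alone, the 1 marker that was lower. The part of liver RNA in any retinoid difference was not tested.

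The receptors were close between arrays. Rarb, a retinoic acid receptor whose own promoter carries a classic response element for the hormone, read 125 in the mutant array, against 138 in the wild-type array (1.11-fold lower, log2 -0.14). Of the probe sets above the filter, 47.7% lay at least as far apart. Rara, the receptor expressed most widely, read 12.6 in the mutant array, against 13.6 in the wild-type array, both under the filter. The authors' bounds for Rara, -0.88 and -1.34 in the deposited table, include equality.

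The promoter of Rarb is printed because retinoic acid is known to raise the expression of this receptor through it. The line gives the 250 bases before the start at chr14:16575477-16575726 on the minus strand (RefSeq, GRCm38.p6), with the direct repeat in capitals. The motif searched was GNTCANNNNNNGNTCA, which stands for a direct repeat with a spacer of 5 and leaves the first letter of each unit free; it was looked for on both strands.
Rarb: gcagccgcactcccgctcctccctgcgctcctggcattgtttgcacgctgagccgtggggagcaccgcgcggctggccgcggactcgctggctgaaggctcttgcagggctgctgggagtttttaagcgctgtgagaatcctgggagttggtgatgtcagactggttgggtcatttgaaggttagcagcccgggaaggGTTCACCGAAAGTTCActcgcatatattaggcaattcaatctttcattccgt
The match lies at -52 to -37. It is found in 0.861% of promoter windows, and among the windows of the 9 genes, 15 in all for 7 of them, only that of Rarb held it. Repeats with shorter spacers, GNTCANNNGNTCA (1.12% of windows) and GNTCANNGNTCA (1.26%), matched none of the 15. Of 54 other genes of retinoid handling, response and the aldehyde dehydrogenase family, 38 had a promoter window and could be searched. Among these, Cyp26a1, the retinoic acid hydroxylase whose gene the hormone induces, matched on the opposite strand of chr19:37697770-37697797, with the match in capitals.
Cyp26a1: taaagaTGAACTTTGGGTGAACtaattt
The 2 genes found with this match differed in opposite directions. Cyp26a1 read 9.98 in the mutant array, against 7.57 in the wild-type array, both under the filter, while Rarb was slightly lower in the mutant. Cyp26b1, the other measured hydroxylase of retinoic acid, read 12.3 in the mutant array, against 15.0 in the wild-type array, and was under the filter too.

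Other genes of retinoid handling and response, with the rest of the aldehyde dehydrogenase family, made up lists of 54 genes, of which 52 were measured and 38 passed the filter. None of the 38 was at least 2-fold apart, where 0.525% of all genes above the filter were at least 2-fold higher and 0.517% lower. In all, 17 were higher and 21 lower in the mutant (48.0% and 51.9% of all genes), with a median log2 difference of -0.03 beside -0.01 for all genes. With array medians set equal, 24 were higher and 13 lower, where 8526 of all 13154 genes then above the filter were higher and 4628 lower. At 1.5-fold there was 1 gene in each direction, where 4.58% of all genes were that far apart.

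Adh1 was the gene higher by that much. It encodes an alcohol dehydrogenase that can oxidise retinol to retinal, the step before retinal is oxidised. It read 1067 in the mutant array, against 655 in the wild-type array (1.63-fold, log2 0.70). Rdh10, the retinol dehydrogenase that the embryo needs to make retinoic acid, read 267 in the mutant array, against 264 in the wild-type array. Dhrs3, which turns retinal back into retinol, read 451 in the mutant array, against 420 in the wild-type array (1.07-fold higher). Dhrs4 was 1.06-fold lower on its brighter probe set, and its probe sets ran from -0.09 to 0.23 on the log2 scale. Rdh1 read 11.9 in the mutant array, against 16.8 in the wild-type array, and passed the filter only through wild type. Of the 7 genes of this step above the filter, 4 were higher and 3 lower. With array medians set equal, 5 of the 6 then above the filter were higher and 1 lower, where 8526 of all 13154 genes were higher.

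Among genes of carriage and storage, 3 of the 4 above the filter were higher, where 48.0% of all genes were. Crabp1, a binding protein of retinoic acid, read 29.7 in the mutant array, against 21.4 in the wild-type array (1.39-fold higher), the opposite direction from Crabp2. Fabp5, a fatty acid-binding protein that can carry retinoic acid, was 1.03-fold higher. Ttr, the plasma partner of retinol-binding protein, was lower on each of its 4 probe sets, by -0.11 to -0.29 on the log2 scale as deposited.

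Receptors and cofactors differed by 1.14-fold at most. Of 9 above the filter, 8 were lower and 1 higher as deposited, but 3 were lower and 6 higher with array medians set equal. Rxra, the main RXR partner, read 118 in the mutant array, against 134 in the wild-type array (1.14-fold lower). Rarg, another retinoic acid receptor, read 22.3 in the mutant array, against 23.3 in the wild-type array. Nrip1, a corepressor of hormone-bound receptors, was 1.10-fold lower and the coactivator gene Ncoa2 was 1.07-fold lower on their brightest probe sets.

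Genes known to respond to retinoic acid gave no common direction, with 3 of 9 higher and 6 lower under all 3 scalings tried. Of all genes above the filter, 48.0% were higher as deposited. The count was 8526 of 13154 with array medians set equal and 6625 of 13154 after quantile normalization. Ret read 19.6 in the mutant array, against 13.4 in the wild-type array on its brighter probe set (1.47-fold higher), and 13.6 in the mutant array, against 6.58 in the wild-type array on the other. Both Ret readings were dim, and the brighter probe set passed the filter only through the mutant array. Ecm1, a stromal matrix gene that restrains Ret in the mouse ureteric bud, read 157 in the mutant array, against 209 in the wild-type array (1.33-fold lower). Rarres2, the gene of the secreted protein chemerin, was 1.19-fold lower, and Bhlhe40, a transcriptional repressor, was 1.20-fold higher.

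Tgm2, a transglutaminase gene induced by retinoic acid in many cells, had probe sets that contradicted each other. On 1438942_x_at it read 3839 in the mutant array, against 6.02 in the wild-type array, 638-fold higher and the largest difference of all 45037 probe sets. On the other 5 probe sets Tgm2 was higher by 0.09 to 0.23 on the log2 scale, and the brightest of them read 360 in the mutant array, against 338 in the wild-type array. The difference of 1 probe set was thus not shared by the rest of the gene.

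**Figure D4:**
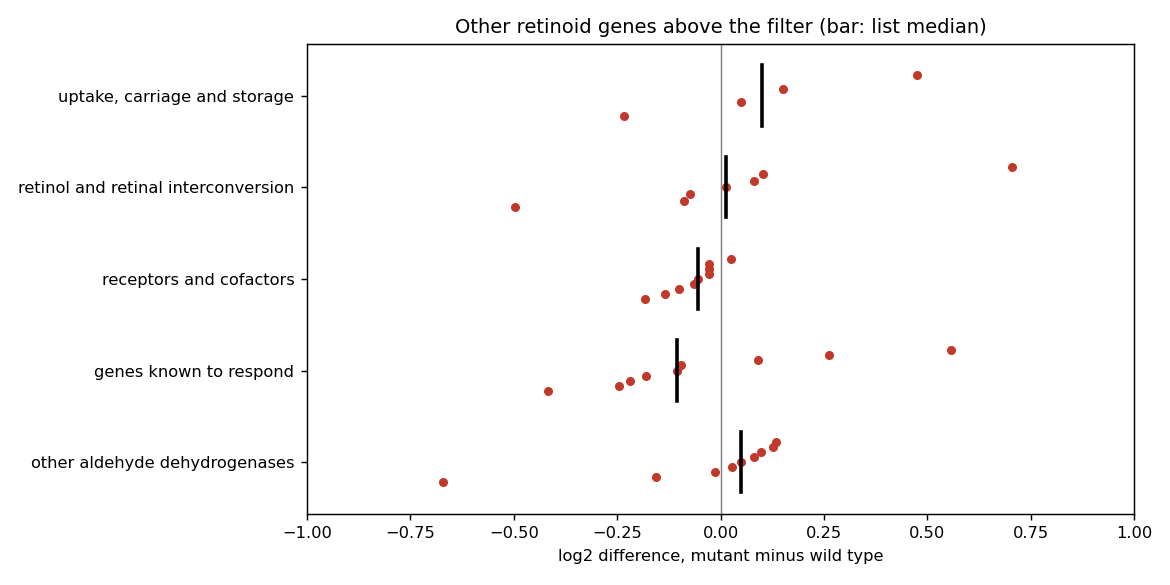
Log2 difference, mutant minus wild type, of the other retinoid genes and of other aldehyde dehydrogenases above the filter, with 1 point per gene (its brightest probe set) and a bar at the median of each list. Points run from -0.67 (Aldh8a1) to 0.70 (Adh1), so none reached 2-fold.

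Aldehyde dehydrogenases outside the Aldh1a subfamily served as a comparison for the enzyme family. Of 9 above the filter, 6 were higher and 3 lower, where 48.0% and 51.9% of all genes were. Aldh8a1, which can oxidise a cis form of retinal, read 35.4 in the mutant array, against 56.5 in the wild-type array (1.59-fold lower), and both its probe sets were lower. The mitochondrial enzyme gene Aldh1b1 was 1.11-fold lower, while Aldh4a1, of proline breakdown, and Aldh7a1, of lysine breakdown, were 1.10-fold and 1.09-fold higher.

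The samples differed in markers of other tissues and in sex-linked genes as well. Of 12 adrenal genes, 8 passed the filter, each only through the wild-type array. That all 8 were lower in the mutant was thus fixed by the filter. Under the filter, Cyp11a1 was higher (9.7 in the mutant array, 5.69 in the wild-type array), while Cyp21a1, Nr5a1 and Mc2r were lower. The whole list summed to 87.1 in the mutant array and 678 in the wild-type array. Aldh1a1 and Aldh1a7 differed in the opposite direction to this sum, and the part of adrenal RNA in their values was not tested. Macrophage markers differed in the same direction as the pair, with 4 of 5 higher, 1 lower and a median log2 difference of 0.49, and all 5 higher with array medians set equal. Csf1r, a growth factor receptor of macrophages, read 326 in the mutant array, against 214 in the wild-type array (1.52-fold higher). This direction was not particular to macrophages. Of all genes above the filter, 48.0% were higher and 51.9% lower as deposited. With array medians set equal, 8526 of 13154 were higher. Most markers above the filter were also higher for ureteric epithelium and collecting duct (8 of 10) and liver (7 of 8). Proximal tubule (6 of 10 higher) and mesothelium (2 of 3 higher) lay nearer the share of all genes. The mesothelial marker Upk3b was higher by log2 0.06 on its brightest probe set and lower by -0.03 on its other. Most markers were lower for stroma (7 of 10), podocytes (7 of 7) and endothelium (5 of 6). The adipose markers were split, with 2 higher and 2 lower of the 4 above the filter (3 and 1 with array medians set equal) and a sum of 2285 in each array. Among them Ucp1, the uncoupling protein of brown fat, read 158 in the mutant array, against 46.5 in the wild-type array (3.39-fold higher). The part of RNA from macrophages, fat or any other of these cell types in the Aldh1a1 and Aldh1a7 values was not tested. Xist, which silences an X chromosome in female cells, read 1113 in the mutant array, against 4.67 in the wild-type array. The 4 Y-linked genes were all lower in the mutant, by 4.38-fold to 4.93-fold, yet 3 of them read above the filter there. Among them Ddx3y read 84.2 in the mutant array, against 394 in the wild-type array. The mutant array thus read both Xist and Y-linked genes, and the labels do not give the sex of the animals. Proximal tubule markers, which identify kidney and were bright on both arrays, summed to 12366 in the mutant array and 10452 in the wild-type array, with 6 of 10 higher. Genotype, sex-linked expression and the content of other tissues therefore cannot be told apart in any difference given here.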

How the data were processed

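Per the labels and the series' design text, RNA was extracted with TRIzol and hybridised to 1 Affymetrix Mouse 430 2.0 array per group, and the authors computed the intensity of each probe set in dChip (2010 version). How background was removed and arrays were scaled is not stated there. Per the file headers, control probe sets were omitted, and the table also gives standard errors and a signed fold with bounds. The 2 deposited files held equal intensities in all 45037 probe sets. Those intensities were used as deposited. Values under the 20th percentile (4.2) were raised to it before log2, and probe sets whose brighter array reached the median (16.53) passed the filter. Folds are mutant over wild type, computed with Python 3.11.15, numpy 2.4.6 and pandas 2.3.3. The code of the fold rule was run on simulated arrays in which only bright probe sets were changed. Their noise was smaller than the spread seen at the intensity of Aldh1a1, so that run says nothing about probe sets as dim as Aldh1a1.

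Members and gene lists were chosen with earlier results of these data known. Named were all member probe sets and, from each other retinoid list, at most 4 genes above the filter with the largest absolute difference. A gene that this rule names is not reported here. Rdh10, Cyp26a1, Cyp26b1 and Tgm2, and the genes beside Aldh1a1, were added after their values were seen. A gene other than a member was read from its brightest probe set by mean log2 intensity. Of 37579 probe sets with 1 gene, 34316 had their gene identifier in a RefSeq gene table (GRCm38.p6). These took the symbol given there, whether or not it differed from the deposited one. That RefSeq table, with the promoter windows, gave the sequences. Likeness of pattern to other genes was not ranked, since 2 arrays give 1 difference. Alternatives were 2 other scalings, no floor or another floor, a pseudocount of 32, no filter or a filter at 83.51, leaving out shared probe sets, other fold lines and the authors' lower bound. Precision is limited by the number of arrays.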

Additional observations from a re-analysis of the deposited data

How the results depend on the processing

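The count of member probe sets at least 2-fold higher in the mutant stayed at 1 under 10 of 12 alternatives and was 0 with a pseudocount of 32 and 0 at a 3-fold line, where Aldh1a1 missed the line. The count at least 2-fold lower was 0 under all 12. Aldh1a1 ranged from 0.74 (pseudocount of 32) to 1.19 (array medians set equal) on the log2 scale, and Aldh1a7 from 0.40 to 0.65 under the same settings. The pseudocount shrinks the differences of dim probe sets by construction. The brightest Aldh1a3 probe set ranged from -0.33 to -0.26, Rarb from -0.14 to -0.07, and Crabp2 from -0.31 to -0.11, and each stayed lower in the mutant under the 9 alternatives run on it. The median over member probe sets above the filter ranged from -0.11 to -0.02. The median over the other retinoid genes ranged from -0.05 to 0.05. Each array is the whole of its group, so no replicate could be left out. No paired analysis was possible because each group has 1 sample.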
